A study of Mus musculus with 24 samples.

Results

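In the mouse tumours examined here, the protein-coding genes of chromosome 13 were taken as a region and described in 10 Mb bins. Members were chosen by measured values: genes starting on chromosome 13 of mm10 in the GENCODE M21 annotation, with at least 1 FPKM (fragments per kilobase of transcript, scaled to the library total) in at least 3 of the 12 libraries of a tumour line. Symbols starting with Hist, Zfp, Nduf, Uqcr, Rpl, Rps or Psm were left out. Of 55335 genes in the files, 837 were protein-coding on chromosome 13, and 98 of them belonged to a left-out family. Of the remaining 739 genes, 359 passed in B16 and 391 in MC38; 345 passed in both lines and 405 in either. The other 380 in B16 and 348 in MC38 stayed under the filter and are not described. The third-highest FPKM was 1.014 for Ripor2 and 1.052 for Gm28557, just inside the filter in B16, and 0.985 for Rgs14 and 0.972 for Pxdc1, just outside. In MC38 it was 1.009 for Gm10767 and 1.031 for Rgs14 inside, against 0.955 for Gm49391 and 0.936 for Rnf180 outside. The chromosome was singled out because of its knock-out minus WT differences in B16, so those differences are given as a description and were not tested.

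RNA was sequenced from tumours of 2 transplantable mouse lines, B16 melanoma and MC38 colon carcinoma. Each line was either parental CHEK2-WT (WT) or CHEK2-knock out (KO), and the mice received either PBS or anti-PD-1, an antibody against the T cell inhibitory receptor PD-1. The 8 groups held 3 libraries each, 24 in all. The study asks how loss of Chek2, which encodes a DNA damage checkpoint kinase and lies on chromosome 5, bears on tumours under PD-1 blockade. Mouse strain and age, whether a knock-out line was 1 clone or a pool, and whether a library was 1 tumour are not given in the sources used here, so p-values measure only the spread between these libraries.

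Genes of a chromosome share its copy number, and neighbouring genes can share a chromatin domain, so their RNA can be read as a group as well as gene by gene. RNA levels alone report neither copy number nor chromatin, and neither was measured. Mouse chromosome 13 carries clusters of histone, prolactin-family and serpin genes, together with housekeeping genes of sterol synthesis, folate metabolism, transcription and mitosis.

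Library FPKM sums ran from 310868 to 398474. The 3 B16 KO anti-PD-1 libraries stood apart, at 375193 or more against at most 344059 elsewhere. The B16 genotype differences under PBS do not use them, but their standard errors do, because the 12 libraries of a line were fitted together. Every B16 KO minus WT difference under anti-PD-1 and every B16 KO response to anti-PD-1 uses them directly. Replicates correlated at r = 0.979 to 0.992 on the log2 scale, and at most 0.030% of the nonzero values were identical in any of 276 library pairs. Chek2 was 7.17 to 9.29 FPKM in B16 WT and 5.64 to 6.75 in B16 KO libraries, and 4.61 to 6.14 against 1.92 to 3.37 in MC38, so WT and KO libraries did not overlap in either line. The summed level of 5 melanocyte markers was 4698 to 6057 FPKM in B16 libraries and at most 0.404 in MC38. The sum of 4 epithelial markers was only 1.16 to 31.4 FPKM in MC38. In whole tumours, fewer cells of a type and less RNA per cell cannot be told apart.

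The promoters of 3 genes are shown because in B16 they had, among members whose KO and WT libraries did not overlap under either treatment, the most negative differences averaged over treatments (Bdp1 and Lyst) or the only positive one (Lhfpl2). Bdp1 encodes a subunit of TFIIIB, which recruits RNA polymerase III. Lyst encodes the lysosomal trafficking regulator that is mutated in beige mice. Lhfpl2 encodes a tetraspan membrane protein. Each run covers 250 bases before to 50 bases after the RefSeq gene start, 5′ to 3′ on the gene's strand, from RefSeq on GRCm38.p6, the assembly behind mm10. They lie at chr13:100104021-100104320 on the minus strand (Bdp1), chr13:13590159-13590458 on the plus strand (Lyst) and chr13:94057546-94057845 on the plus strand (Lhfpl2). Capitals mark the GC box GGGCGG and the CCAAT box, searched on both strands.
Bdp1: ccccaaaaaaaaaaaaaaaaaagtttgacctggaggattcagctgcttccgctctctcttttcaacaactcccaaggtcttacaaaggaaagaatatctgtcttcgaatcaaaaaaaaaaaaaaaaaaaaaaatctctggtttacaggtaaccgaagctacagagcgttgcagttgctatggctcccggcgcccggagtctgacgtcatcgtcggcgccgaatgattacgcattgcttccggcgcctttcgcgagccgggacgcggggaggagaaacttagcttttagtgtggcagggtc
Lyst: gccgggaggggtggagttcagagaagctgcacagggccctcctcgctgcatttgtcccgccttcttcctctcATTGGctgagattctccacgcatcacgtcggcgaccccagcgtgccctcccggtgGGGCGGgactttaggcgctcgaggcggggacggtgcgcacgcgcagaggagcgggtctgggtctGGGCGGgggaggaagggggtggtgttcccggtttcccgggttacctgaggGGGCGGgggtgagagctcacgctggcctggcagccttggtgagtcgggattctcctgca
Lhfpl2: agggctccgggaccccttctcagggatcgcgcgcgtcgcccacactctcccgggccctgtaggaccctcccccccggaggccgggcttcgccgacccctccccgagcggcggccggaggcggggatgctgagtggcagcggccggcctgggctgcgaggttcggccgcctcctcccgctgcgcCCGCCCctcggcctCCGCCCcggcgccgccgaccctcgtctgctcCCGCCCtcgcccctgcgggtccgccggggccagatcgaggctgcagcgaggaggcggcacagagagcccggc
The Bdp1 window held neither box, the Lyst window held 3 GC boxes and 1 CCAAT box, and the Lhfpl2 window held 3 GC boxes. None held TATAAA on either strand. CG dinucleotides numbered 20, 24 and 40 in the same order. Of the 359 B16 members, 303 had a RefSeq promoter, with a median of 23 CG dinucleotides against 14 over all 16514 promoters, which include genes not expressed here. The GC box occurred in 63.7% of member promoters and 48.2% of all, CCAAT in 38.0% and 38.8%, and TATAAA in 5.28% and 12.9%. These are letter matches only. Over these windows, the gene that was higher and 1 of the genes that were lower in KO both carried GC boxes.

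In B16 tumours most chromosome 13 genes had less RNA in KO than in WT. Under PBS, 316 of 359 members were lower (88.0%, against 60.6% of 10274 genes of the same types on the other chromosomes), and the median difference on the log2(FPKM + 1) scale was -0.24 (quartiles -0.35 and -0.10) against -0.04. Under anti-PD-1, 257 were lower (71.6% against 51.2%), with a median of -0.25 (quartiles -0.51 and 0.07) against -0.01. Chromosome 13 had the lowest median of 20 chromosomes under both treatments. The next lowest were -0.12 for chromosome 8 under PBS and -0.18 for chromosome 18 under anti-PD-1. Relative to the other chromosomes the shift was -0.20 and -0.24, or 12.7% and 15.1% below on the FPKM + 1 scale. Against genes of the same transcript GC class the shift was -0.21 and -0.10. With no filter on low values it was -0.11 and -0.07. After rescaling protein-coding genes to equal sums, the anti-PD-1 median itself was -0.44 against -0.22 elsewhere. In MC38 the chromosome did not stand out: medians were -0.03 with PBS and 0.01 with anti-PD-1, against -0.00 and 0.00 elsewhere, ranking 6 and 11 of 20 from the lowest. Only genotype differences within each line were computed, and the difference between the lines was not tested.

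**Figure D1:**
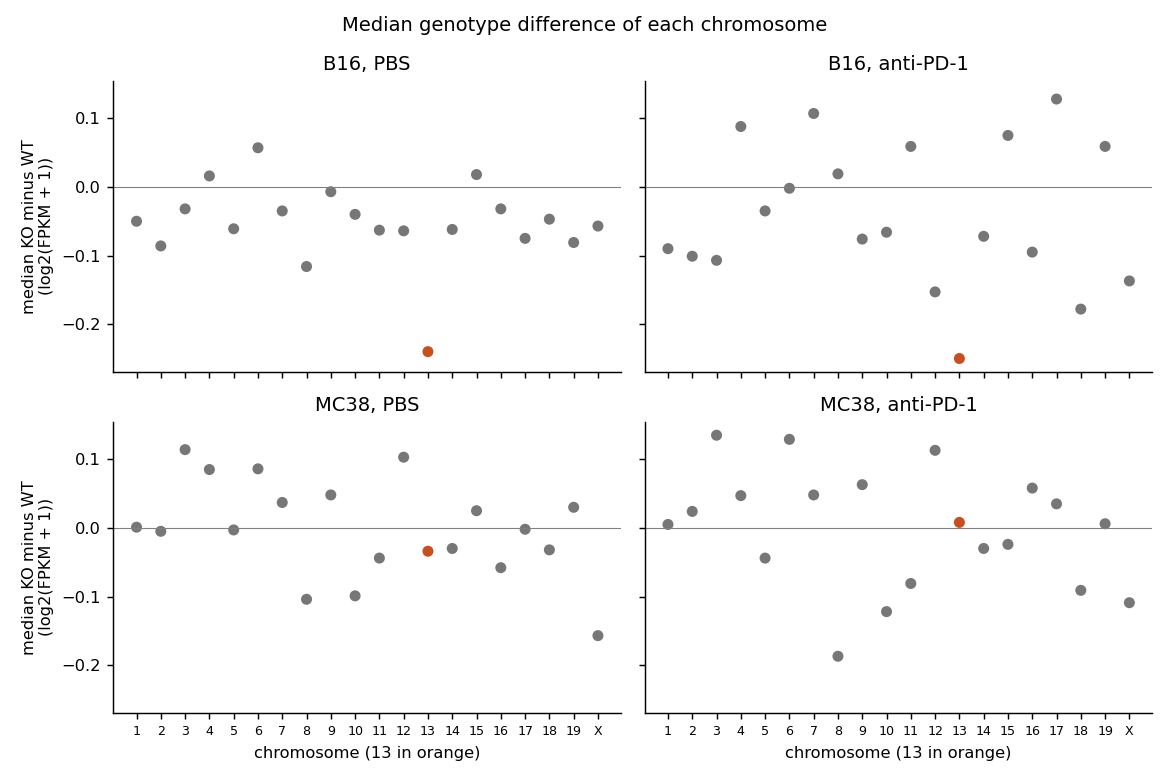
Median KO minus WT difference, log2(FPKM + 1), of the genes of each chromosome (x axis), in each line and treatment. Chromosome 13 (orange) lies at -0.24 and -0.25 in B16, below the other 19 chromosomes, and at -0.03 and 0.01 in MC38, among them.

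The shift involved the body of the distribution rather than a few genes. In B16 under PBS it held for 144 members below 5 FPKM (81.9% lower, median -0.16), 159 members from 5 to 20 FPKM (92.5%, -0.27) and 56 members above (91.1%, -0.26). Under anti-PD-1 the medians of the same classes were -0.26, -0.24 and -0.24. Other chromosomes stood at -0.02, -0.07 and 0.13 in those classes. The gap was thus widest in the most abundant class because the other chromosomes stood higher there, not because its members stood lower. The share of members that were lower was smallest in that class, at 60.7% against 72.9% and 74.2% in the first and second classes.

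**Figure D2:**
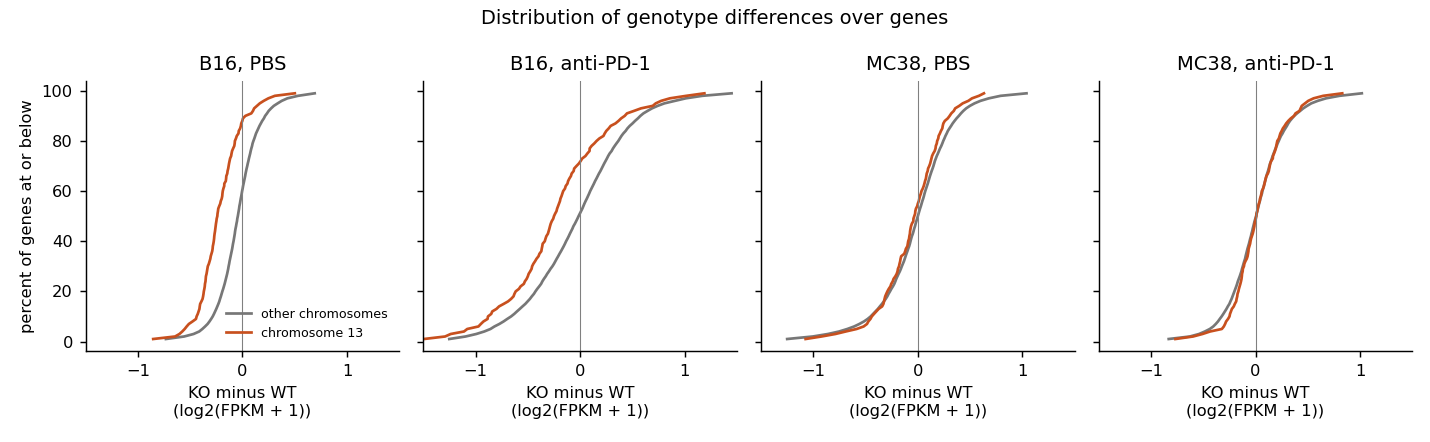
Cumulative percentage of genes (y axis, 1st to 99th percentile) at or below a given KO minus WT difference in log2(FPKM + 1), for chromosome 13 (orange) and the other chromosomes (grey). In B16 the chromosome 13 curve is displaced to the left over most of its length, and in MC38 the curves overlie each other.

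Library by library, a score was formed as the median over members of the deviation from each gene's mean over 12 libraries, minus the same median over the other chromosomes. For the whole chromosome in B16 it was 0.09 ± 0.01 in WT against -0.09 ± 0.04 in KO with PBS, and 0.09 ± 0.02 and -0.11 ± 0.07 under anti-PD-1 (SD, n = 3). WT libraries lay at 0.08 to 0.11 and KO libraries at -0.17 to -0.04, with no overlap. In MC38 the score was 0.03 ± 0.02 against -0.00 ± 0.02 under PBS and -0.01 ± 0.00 against -0.01 ± 0.01 under anti-PD-1.

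By bin medians, the lower level ran along the whole B16 chromosome under PBS and along most of it under anti-PD-1. All 12 bins with at least 10 members lay below the other chromosomes' median under both treatments, as did 112 and 153 of 234 bins elsewhere under PBS and anti-PD-1. Ranked among 246 genomic bins, 10 of the 12 were among the lowest 24 with PBS and 3 with anti-PD-1. All 3 KO scores lay below all 3 WT scores in 10 bins under PBS and in 9 under anti-PD-1. Cut into 5 Mb bins, 23 of 23 were below the other chromosomes under PBS and 22 of 23 under anti-PD-1.

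**Figure D3:**
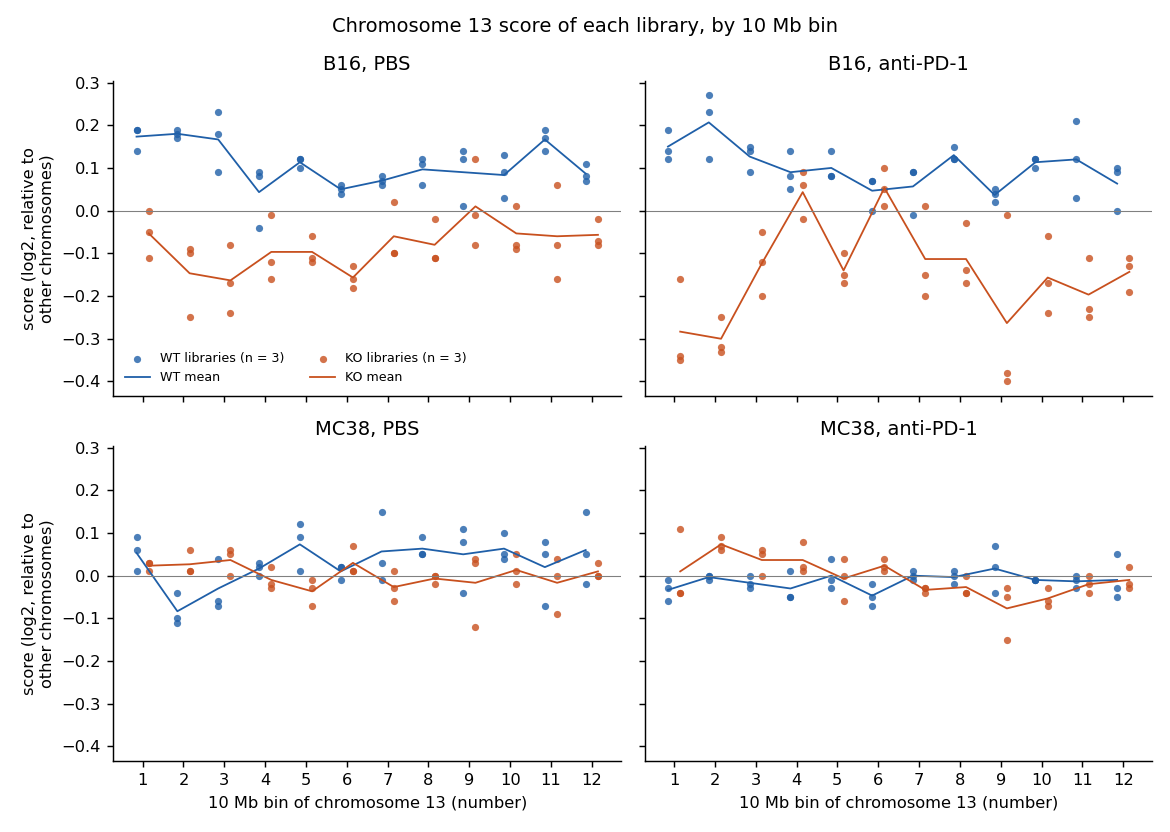
Score of each library (points, log2, relative to the other chromosomes) and group means (lines) in the 12 bins of chromosome 13 numbered from the chromosome start, for WT (blue) and KO (orange), n = 3 libraries each. In B16 the KO points lie below the WT points in 10 bins with PBS and 9 with anti-PD-1. They meet in bins 4 and 9 with PBS and in bins 4, 6 and 7 with anti-PD-1.

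The first 30 Mb showed the largest differences under PBS. Medians were -0.33 in the bin from 0 to 10 Mb (12 of 16 members lower), -0.37 from 10 to 20 Mb (20 of 21) and -0.39 from 20 to 30 Mb (17 of 20), the lowest 3 of all 246 bins. Under anti-PD-1 they were -0.43, -0.49 and -0.29. The scores of the 10 to 20 Mb bin were 0.18 ± 0.01 in WT against -0.15 ± 0.09 in KO with PBS, and 0.20 ± 0.08 and -0.30 ± 0.04 under anti-PD-1 (SD, n = 3). Among its members, Gpr137b, which encodes a lysosomal membrane protein, was the most abundant. Gpr137b measured 37.6, 36.6 and 59.8 FPKM in WT against 32.5, 27.2 and 24.6 in KO with PBS, and 44, 45.9 and 37.0 against 18.5, 23.8 and 27.4 under anti-PD-1. Every KO library was below every WT library of its treatment. Mrs2, which encodes a mitochondrial magnesium channel in the 20 to 30 Mb bin, measured 41.2, 36.4 and 40.3 FPKM in WT against 30.8, 26.2 and 32.7 in KO under PBS. Under anti-PD-1 it measured 38.8, 41.2 and 39.4 against 16.5, 17.0 and 17.5, a wider gap (log2 differences -0.39 and -1.18, SE 0.0867). Idi1, of isoprenoid synthesis in the first bin, differed by -0.72 under PBS (SE 0.208) without overlap and by -0.54 under anti-PD-1 with overlap. Klf6, a zinc finger transcription factor and the most abundant gene of that bin, went the other way under PBS: 43.9, 37.6 and 41.8 FPKM in WT against 45.5, 51.0 and 50.3 in KO. Under anti-PD-1 Klf6 was lower in KO, at 32.4, 29.0 and 31.0 against 54.9, 42.5 and 41.8.

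From 30 to 60 Mb the treatments differed in what they showed. Under PBS the bins stood at -0.20 (29 of 32 members lower), -0.26 (35 of 38) and -0.26 (54 of 58). Under anti-PD-1 the middle bin kept -0.26, while the bins from 30 to 40 Mb and from 50 to 60 Mb were at -0.06 and -0.02, close to the other chromosomes. Their scores under anti-PD-1 overlapped, 0.09 ± 0.05 in WT and 0.05 ± 0.06 in KO for the former and 0.05 ± 0.04 and 0.06 ± 0.05 for the latter. In the 40 to 50 Mb bin Fam120a, which encodes an RNA-binding protein, measured 124, 119 and 122 FPKM in WT against 104, 97.9 and 111 in KO under PBS. It measured 114, 122 and 126 against 65.9, 76.2 and 78.3 under anti-PD-1, again without overlap. Tmem14c, a mitochondrial porphyrin transporter in the same bin, was lower in KO under PBS (61.0, 58.8 and 71.7 against 81.1, 89.9 and 104 FPKM). Under anti-PD-1 Tmem14c was higher in KO (105, 104 and 90.7 against 78.4, 73.3 and 77.5). Hnrnpa0, an RNA-binding protein gene of the 50 to 60 Mb bin, differed by -0.28 under PBS and by 0.23 under anti-PD-1. The sign of its second difference turned under quantile normalization (-0.08) and with protein-coding genes rescaled to equal sums (-0.02).

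From 60 to 90 Mb the bins were -0.11 (22 of 29 lower), -0.24 (22 of 23) and -0.13 (11 of 14) with PBS and -0.26, -0.23 and -0.29 with anti-PD-1. The bin from 60 to 70 Mb had the smallest PBS difference of the chromosome, and its KO and WT scores overlapped under anti-PD-1 (-0.20 to 0.01 against -0.01 to 0.09). Ctsl, which encodes the lysosomal protease cathepsin L in that bin, was level under PBS (difference 0.00, SE 0.163). Ctsl was higher in KO under anti-PD-1, at 29.9, 21.8 and 21.6 FPKM against 11.2, 13.5 and 16.2. Sdha, a subunit of succinate dehydrogenase in the 70 to 80 Mb bin, measured 67.2, 68.2 and 75 FPKM in WT against 64, 57.8 and 62.2 in KO with PBS, a small difference without overlap (-0.19, SE 0.0775). The processed ferritin copy Ftl1-ps1 of the same bin differed by 0.13 under PBS and 0.70 under anti-PD-1, but reads of its parent gene may be shared with it. In the 80 to 90 Mb bin, scores under anti-PD-1 were uneven among KO libraries, at -0.40 to -0.01 against 0.02 to 0.05 in WT.

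The last 30 Mb differed by -0.17 (36 of 44 members lower), -0.25 (33 of 35) and -0.18 (24 of 28) with PBS, and by -0.29, -0.32 and -0.23 with anti-PD-1. Ccnb1, which encodes the mitotic cyclin B1 in the 100 to 110 Mb bin, measured 27.6, 28.2 and 30.3 FPKM in WT against 24.2, 23.3 and 24 in KO with PBS. It measured 26.8, 27.3 and 31.6 against 14.1, 20.3 and 14.8 under anti-PD-1, and no library overlapped. Hmgcs1, the HMG-CoA synthase of sterol synthesis, overlapped between genotypes under PBS (57.5, 62.4 and 104 against 47.5, 52.4 and 64.8 FPKM). Under anti-PD-1 Hmgcs1 did not overlap (52.5, 67.2 and 61.6 against 29.4, 39.5 and 35.9). Btf3, a nascent-chain chaperone gene, was the most abundant member of the chromosome, at 171 to 187 FPKM in WT against 150.1 to 158 in KO with PBS. Beyond 120 Mb a single B16 member remained, Gm21188, which has near-identical copies and is uncertain.

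Several abundant members turned sign with the scaling under anti-PD-1. The KO minus WT differences of Acot13 (0.14), Prelid1 (0.27), Hnrnpa0 (0.23), Cetn3 (0.16), Btf3 (0.06), Tbca (0.29), Ak6 (0.01) and Gpx8 (0.11) became negative under quantile normalization or the protein-coding rescaling. Under PBS the difference of each was negative, between -0.18 for Tbca and -0.51 for Acot13.

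Counted gene by gene, 171 of 359 B16 members (47.6%) had all 3 KO libraries below all 3 WT libraries under PBS, against 13.7% of all 13627 genes tested, and 5 had all above, against 7.54%. Under anti-PD-1 the counts were 173 (48.2%) below, against 31.5%, and 37 above, against 19.2%. Of the genes below, 96 were the same under both treatments, 56.1% of the PBS set and 55.5% of the anti-PD-1 set. The matching share over all genes was not computed, so this recurrence cannot be called particular to the chromosome. In MC38, 91 of 391 members were below under PBS, against 19.5% of all 14209 genes, and 74 above, against 20.4%. Under anti-PD-1 65 were below, against 18%, and 72 above, against 16%. The rule used these contrasts, and nothing further is read from the shares.

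Of the 96 genes below WT under both treatments, 94 carry a gene name. The 6 with the most negative averaged difference were spread from the first bin to the eleventh. Bdp1 (ENSMUSG00000049658, 100017994 to 100104070) measured 7.69, 8.77 and 8.75 FPKM in WT against 6.18, 7.23 and 5.50 in KO with PBS, and 7.90, 9.35 and 9.31 against 2.48, 0.435 and 2.34 under anti-PD-1. The second gap was wider: log2 differences were -0.37 and -1.94 (SE 0.271). Lyst (ENSMUSG00000019726, 13590397 to 13778803) measured 8.94, 8.70 and 10.5 FPKM against 6.20, 5.83 and 5.79 under PBS, and 8.30, 10.6 and 9.81 against 1.89, 2.11 and 2.88 under anti-PD-1 (-0.58 and -1.69, SE 0.124). Slc12a7, a potassium-chloride cotransporter gene (73733094 to 73816754), measured 10.2, 11.5 and 11.1 FPKM against 6.86, 6.67 and 7.64 under PBS, and 8.58, 13 and 12.4 against 3.74, 4.11 and 4.04 under anti-PD-1. All 3 thus combined a modest gap under PBS with a wider one under anti-PD-1. The same held for Fam208b, a relative of the silencing factor gene Tasor (-0.25 and -1.49). It also held for Map1b, a microtubule-associated protein gene (-0.37 and -1.28), and Zkscan8, a zinc finger gene (-0.34 and -1.27). Differences also spread more widely under anti-PD-1 on the other chromosomes (quartiles -0.35 and 0.28, against -0.16 and 0.07 under PBS). A ranking by the averaged difference therefore favours wide anti-PD-1 gaps, and the pattern is not read as a trait of these genes. Lhfpl2 (94057796 to 94195409) went against the chromosome, at 8.20, 7.79 and 4.71 FPKM in WT against 13.6, 13.6 and 13.8 in KO with PBS. Under anti-PD-1 Lhfpl2 measured 7.55, 5.98 and 6.69 against 7.66, 10.2 and 10.1, a narrower gap (0.92 and 0.41, SE 0.170).

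**Figure D4:**
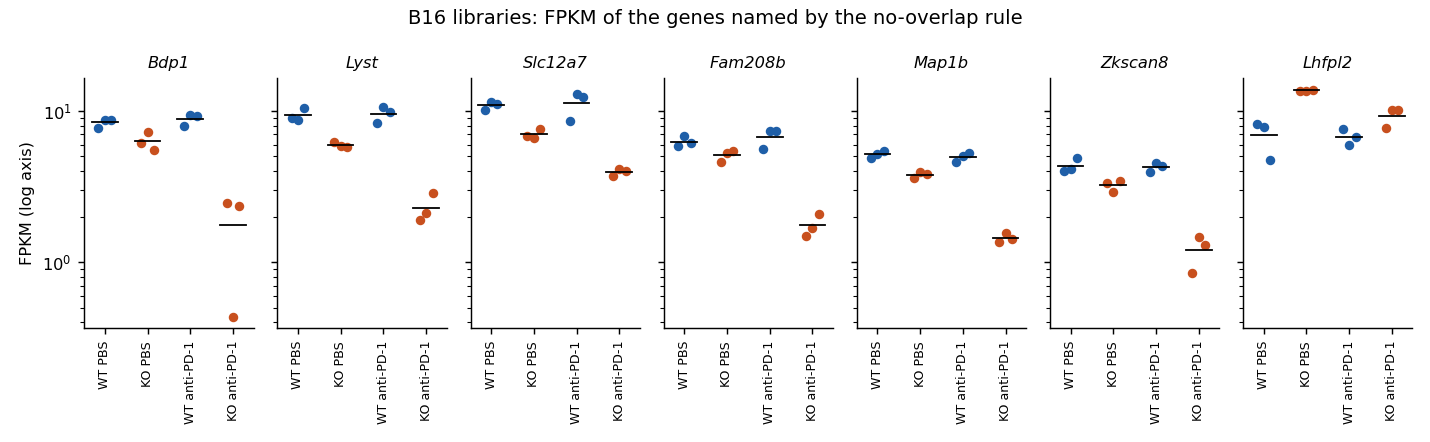
FPKM (log axis) of 7 chromosome 13 genes in the 12 B16 libraries, by genotype and treatment, with each library as a point. The 6 genes with lower KO values are lowest in the KO anti-PD-1 libraries (Bdp1 at 0.435 to 2.48), and Lhfpl2 is highest in the KO PBS libraries (13.6 to 13.8).

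Transcript GC content moved with the B16 anti-PD-1 difference. Over 10274 genes of other chromosomes in B16 the KO minus WT difference under anti-PD-1 had r = 0.34 with the GC content of the longest transcript, a description across genes that share the same libraries, and the median went from -0.36 in the lowest of 10 GC classes to 0.20 in the highest. Under PBS r was -0.08. Chromosome 13 members had a median GC of 46.2% against 49.7% elsewhere. Set against genes of the same GC class, the chromosome stood at -0.21 under PBS, as large as before, and at -0.10 under anti-PD-1, against -0.24 before. Members lay below in 10 of 10 classes under PBS and in 8 of 10 under anti-PD-1. The bin from 80 to 90 Mb, with a median GC of 39.7%, went from -0.27 to 0.07 under anti-PD-1, and the bin from 30 to 40 Mb from -0.04 to 0.06. The bins from 0 to 10, 10 to 20, 40 to 50 and 60 to 70 Mb went from -0.42, -0.48, -0.24 and -0.24 to -0.19, -0.29, -0.09 and -0.10. Those from 100 to 110 and 110 to 120 Mb went from -0.31 and -0.22 to -0.11 and -0.05. The bins from 20 to 30, 70 to 80 and 90 to 100 Mb changed less, from -0.28, -0.21 and -0.27 to -0.23, -0.17 and -0.22. The 50 to 60 Mb bin stood at -0.00 before and 0.00 after. Against genes of the same transcript length class, the chromosome stood at -0.20 and -0.18. The part of library preparation or RNA quality in this relation was not tested.

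**Figure D5:**
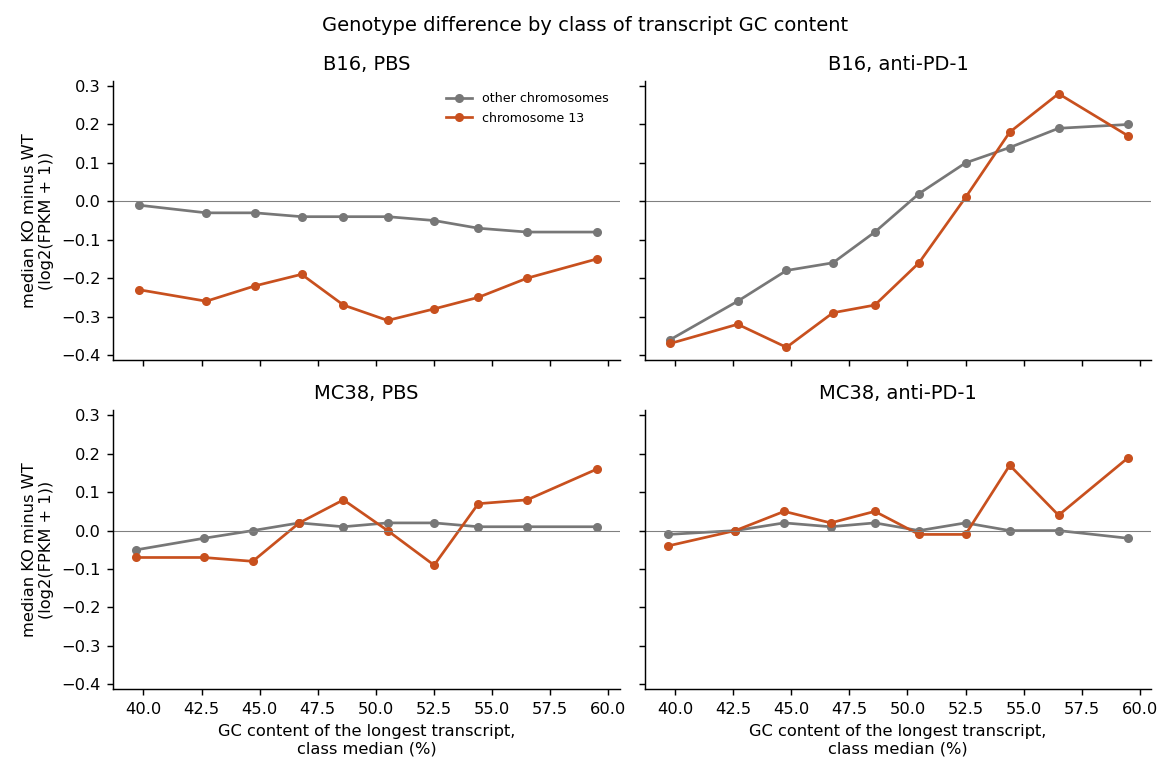
Median KO minus WT difference (y axis, log2(FPKM + 1)) by class of transcript GC content (x axis, class median in percent) for chromosome 13 (orange) and the other chromosomes (grey). In B16 under PBS chromosome 13 lies below in 10 of 10 classes; under anti-PD-1 both lines climb with GC content and chromosome 13 lies below in 8 of 10.

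By function, the B16 lists followed the chromosome to unequal degrees. All 24 measured cell cycle and repair genes were lower in KO under PBS (median -0.23; 21 of 24 under quantile normalization), and 18 were lower under anti-PD-1 (-0.31; -0.52 with 21 lower after the protein-coding rescaling and -0.20 with 17 lower under quantile normalization). They include Gmnn, encoding the replication licensing inhibitor geminin, at 18.6, 17.9 and 21.2 FPKM in WT against 11.9, 12.5 and 13.2 in KO under PBS. Of 19 metabolic enzyme genes, 16 were lower under each treatment (medians -0.30 and -0.34, the latter -0.54 after rescaling). Sdha, described above, differed by -0.19 and -0.14. Of 15 signalling and transcription genes, 11 were lower under PBS (-0.27) and 15 under anti-PD-1 (-0.63). Sox4, a transcription factor gene, differed by -0.41 and -0.64. The 20 immune and host cell genes were mixed: 14 lower under PBS (-0.13) and 12 higher under anti-PD-1 (0.36, or 0.18 after the protein-coding rescaling). The 12 matrix genes stood at -0.03 and 0.07, the latter turning to -0.15 after the protein-coding rescaling. All members together stood at -0.24 and -0.25.

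Summed markers of host cells differed between the B16 groups. The sum of 5 T cell markers was 0.429 to 0.823 FPKM in B16 KO PBS and 4.65 to 16.2 in B16 KO anti-PD-1 libraries, and that of 5 macrophage markers 42.0 to 94.0 and 208 to 527. WT libraries had 0.448 to 4.41 and 41.9 to 215. The sum of 4 fibroblast markers was 6.35 to 12.1 and 30.1 to 201, with WT libraries at 9.29 to 74.8, overlapping both. The sum of 2 red cell markers was 9719, 1270.1 and 625 in KO anti-PD-1, 2116, 2162 and 125 in KO PBS and 114 to 1616 in WT libraries. The sum of 3 skeletal muscle markers reached 977, 86.2 and 4.50 in the KO anti-PD-1 libraries against at most 1.05 in other B16 groups. No marker of these 5 cell types was at 0 in all 3 KO anti-PD-1 libraries, and their part in the results was not tested. The melanocyte sum overlapped among all B16 groups.

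The response to anti-PD-1 was not used to choose the members and was tested with limma, although it rests on the same libraries as the genotype differences. In B16 WT tumours 0 of 359 members passed an adjusted p of 0.05, where 0% of all genes did in either direction, and 6 had an unadjusted p under 0.05 (1.67%, against 2.06% of all genes). In B16 KO tumours 67 members rose, or 18.7% against 18.9% of all genes tested, and 83 fell, or 23.1% against 25%. Both shares were near the background. The median was -0.04, against -0.00 elsewhere, and bins ran from -0.31 between 80 and 90 Mb to 0.23 between 50 and 60 Mb. With protein-coding genes rescaled to equal sums, which moved the median of all genes from -0.03 to -0.18, 33 rose and 125 fell.

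The largest rises among the B16 KO calls were Tgfbi, Cxcl14, Ly86 and Gzma. Tgfbi, encoding a matrix protein induced by TGF-beta, measured 1.43, 3.88 and 2.12 FPKM with PBS and 35.2, 10 and 15.8 with anti-PD-1 (log2 2.5, SE 0.567, limma adjusted p = 0.00519). Cxcl14, a chemokine gene, was 0.0263, 0 and 0 FPKM with PBS and 9.10, 3.09 and 1.14 with anti-PD-1 (adjusted p = 0.00647). Ly86, encoding the partner of the receptor CD180, measured 0.555, 0.676 and 0.609 against 8.69, 2.67 and 4.31 (adjusted p = 0.00889). In each the first KO anti-PD-1 library was the highest, and it also had the highest T cell and fibroblast sums. Gzma, the granzyme A gene of cytotoxic lymphocytes, measured 0, 0.675 and 0.146 against 8.98, 1.28 and 1.98. It passed the filter on low values only through the KO anti-PD-1 group, where it was high, so its call is not used as support. With no filter its adjusted p was 0.0842.

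Among the largest falls in B16 KO was Erbin. It encodes a PDZ protein that binds ERBB2 and measured 23.7, 22.6 and 27.2 FPKM with PBS and 7.47, 9.69 and 8.77 with anti-PD-1 (-1.41, SE 0.117, limma adjusted p = 2.43e-05). Bdp1 fell by 1.51 (adjusted p = 0.00150), from the values given above. Arid4b, a gene of the Sin3A chromatin complex, measured 1.96, 2.81 and 3.26 against 0.410, 0.970 and 0.484 (adjusted p = 6.17e-04). Mef2c, a transcription factor gene, measured 0.982, 2.34 and 2.57 against 0.203, 0.360 and 0.253 (adjusted p = 0.00134). No library overlapped between treatments in any of the 4. Beside the 18.9% of all genes that rose and 25% that fell, 7 of 20 immune genes rose, Gzma included, and 0 fell (median 0.49). After rescaling, 5 rose and 1 fell. Other genes of that list were also low in B16 WT libraries, such as Aoah (mean 0.533, highest 1.35 FPKM). How many of them passed the filter only through the KO anti-PD-1 group was not counted, so the immune count is not used as support. Of 15 signalling genes 10 fell and 0 rose (-0.55, with 11 and 0 after rescaling). Of 24 cell cycle genes 3 rose and 4 fell (1 and 8 after rescaling), of 19 metabolic genes 3 and 5 (1 and 6), and of 12 matrix genes 2 and 3 (2 and 4).

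In MC38 the bins did not share a direction between genotypes. Under PBS medians ran from -0.17 between 80 and 90 Mb to 0.11 between 10 and 20 Mb, with 8 of 12 below the other chromosomes, and under anti-PD-1 from -0.13 to 0.14, with 6 of 12 below. The 10 to 20 Mb bin was above WT without overlap of libraries under both treatments, with scores of -0.08 ± 0.04 in WT against 0.02 ± 0.03 in KO with PBS and of -0.00 ± 0.01 and 0.08 ± 0.02 under anti-PD-1 (SD, n = 3). In B16 the same bin had the most negative anti-PD-1 median of the chromosome.

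Named MC38 genes lay on either side. Gas1, a hedgehog co-receptor gene, measured 29.1, 35.6 and 35.4 FPKM in WT against 7.35, 11 and 17.2 in KO under PBS, and 16.1, 12.7 and 20.4 against 4.86, 9.39 and 5.05 under anti-PD-1. Vcan, encoding the matrix proteoglycan versican, measured 73.2, 76.8 and 58.8 against 48.6, 54.0 and 46.9 under PBS (-0.47) and differed by -0.73 under anti-PD-1. Mblac2, Arsb, Cenpk and Gkap1 were lower by smaller amounts. Pfkp, the platelet-type phosphofructokinase gene of glycolysis, was higher: 4.65, 4.59 and 3.46 FPKM in WT against 8.54, 10.4 and 9.61 in KO with PBS, and 3.85, 4.61 and 5.08 against 10.1, 7.52 and 8.28 under anti-PD-1. Nfil3, a bZIP transcription factor gene, differed by 0.89 and 0.57, and Gpr137b by 0.51 and 0.55, where in B16 Gpr137b differed by -0.62 and -0.85. Irx1, Pdlim7 and Ftl1-ps1 were also higher.

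In MC38 WT tumours 0 of 391 members responded to anti-PD-1, where 0% of all genes did in either direction, and 56 had an unadjusted p under 0.05 (14.3%, against 13.7%). The smallest limma adjusted p was 0.0767, for Prl2c2. In MC38 KO tumours 29 members rose (7.42%, against 6.12% of all genes) and 11 fell (2.81%, against 2.86%). Without KO PBS replicate 2 or 3, or KO anti-PD-1 replicate 2 or 3, 20, 19, 16 and 20 rose and 3, 4, 3 and 2 fell, in that order. With only the contrasted groups fitted, 19 rose and 4 fell. The split was 26 and 16 under quantile normalization and 28 and 19 after rescaling. Gzma measured 2.35, 1.32 and 0.713 FPKM with PBS and 6.56, 9.07 and 10.1 with anti-PD-1 (2.00, SE 0.239, adjusted p = 0.00126), while WT libraries held 8.06 to 12.1 under either. Hk3, a hexokinase gene of myeloid cells, measured 5.37, 3.66 and 3.49 against 16.9, 17.6 and 16.3 (adjusted p = 0.00109). Aoah, encoding an enzyme that inactivates lipopolysaccharide, measured 4.59, 2.64 and 1.55 against 9.58, 10.7 and 9.18 (adjusted p = 0.00258). Prl2c2 also rose (1.58, adjusted p = 0.00150), but has near-identical copies and is uncertain.

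Of 23 immune genes of the chromosome in MC38 KO, 13 rose and 0 fell (median 0.72), beside 6.12% and 2.86% of all genes. T cell markers summed to 2.19 to 4.19 FPKM in MC38 KO PBS and 19.6 to 31.9 in KO anti-PD-1 libraries, and macrophage markers to 233 to 613 and 972 to 1119.7. WT libraries held 16.4 to 27.5 and 731 to 829 over both treatments, so the T cell sum was lowest in the KO PBS libraries. The part of these cells was not tested. Between genotypes, 18 of the 23 were lower in KO under PBS (-0.57) and 17 higher under anti-PD-1 (0.30). Among genes that fell, Edil3, a matrix protein gene, measured 7.15, 10 and 8.72 FPKM with PBS and 5.53, 4.42 and 4.13 with anti-PD-1 (-0.76, SE 0.123, limma adjusted p = 0.00434). Hmgcs1 measured 52.4, 57.5 and 53.7 against 35.1, 30.2 and 37.0 (adjusted p = 0.0122), and Plk2, a polo-like kinase gene, 36.9, 32.3 and 46.7 against 24.2, 26 and 27.2 (adjusted p = 0.0406). Nr2f1, a nuclear receptor gene, fell by 0.75 (adjusted p = 0.0271). The calls of Hmgcs1, Plk2 and Nr2f1 were lost when single KO libraries were left out, with adjusted p up to 0.0565, 0.146 and 0.110. Those of Plk2 and Nr2f1 were also lost with no filter on low values and with only the contrasted groups fitted. In the other lists, beside the same shares of all genes, 1 of 24 cell cycle genes fell, 2 of 18 metabolic genes fell and 1 rose, 2 of 14 matrix genes fell and 1 rose, and 1 of 18 signalling genes fell (Sox4, -0.54).

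Between the parental lines, 345 members were tested over 12 WT libraries. Of these 133 (38.6%) were higher in B16, against 35.4% of 15655 genes, and 101 (29.3%) were lower, against 36.7%. Bins ran from -0.15 between 70 and 80 Mb to 0.13 between 50 and 60 Mb, with no common direction. Gpr137b was 43.5 ± 8.92 FPKM in B16 and 5.14 ± 0.700 in MC38 (SD, n = 6; 2.84, limma adjusted p = 3.39e-14). Mrs2 (39.6 ± 1.82 against 7.88 ± 0.613), Pfkp (24.6 ± 3.50 against 4.37 ± 0.596) and Akr1c13, an aldo-keto reductase gene (15.2 ± 1.42 against 2.41 ± 0.355), were also higher in B16. Vcan was the most unequal, at 0.935 ± 0.544 in B16 and 64.4 ± 10.3 in MC38 (-5.11, limma adjusted p = 4.17e-15). Ogn, a small matrix proteoglycan gene (-3.59), Tgfbi (-3.30) and Ly86 (-3.14) were lower in B16 too, and macrophage and fibroblast marker sums were higher in MC38 WT than in B16 WT libraries.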

How the data were processed

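Total RNA of tumours was sequenced in 24 libraries. The FPKM values were deposited by the authors. Per the submitters' processing notes FastQC, STAR 2.5, Cuffnorm, DESeq and mm10 were named, with no role or order, and the annotation and normalization are not given in the sources used here. Depth is unknown, so no counting interval is given. Of 55335 genes, 55154 matched GENCODE M21 by identifier and 181 did not.

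Genes reaching 1 FPKM in 3 or more libraries of the fit were modelled on log2(FPKM + 1) with limma 3.58.1 in R 4.3.3, with 1 mean per group, 12 libraries per line (24 between lines) and a trended prior variance. Adjusted p-values are Benjamini-Hochberg over all genes fitted, called under 0.05 (two-sided), and errors after log2 differences are standard errors. The code was tested on simulated data. Members and gene lists were chosen with earlier results of these data known.

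Genes named were, per line, the 2 with the highest mean FPKM in each bin, the 6 largest differences in each direction without library overlap under both treatments, the 4 largest calls in each direction of each tested contrast, and list examples of high FPKM. Gmnn, Sdha and Sox4 are such list examples, but Gmnn and Sox4 were not the most abundant of their lists. In B16 WT libraries Cks2 (mean 78.5 FPKM) and Ccnb1 (28.6) exceeded Gmnn (18.8), and Klf6 (43.8) and Smad5 (39.4) exceeded Sox4 (22.3). Unlike Sox4, Klf6 was higher in B16 KO under PBS (0.25). Nnt, held by 2 gene models, was left out of list counts. Alternatives were the pseudocount, the filter, 2 normalizations, the libraries fitted, each library left out, and classes of GC content and length, the classes being added after seeing the data.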

Additional observations from a re-analysis of the deposited data

Results flagged for a closer look

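In B16, 77 of 359 members (21.4%) passed the threshold of limma's interaction term, against 23.5% of all 13627 genes tested. In MC38, 6 of 391 (1.53%) passed, against 2.44% of 14209, so neither share exceeded that of all genes. The term is the KO response to anti-PD-1 minus the WT response, and 24 named chromosome 13 genes passed. This value equals the difference between the 2 genotype differences that drew attention to the chromosome, and many of the genes were named for such differences or responses. The threshold served only to pick the genes listed, and their passing it is not used as support. The values are therefore a description on the log2(FPKM + 1) scale, with no p-value.

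In B16 the response was more negative in KO for Bdp1 (-1.57), Erbin (-1.48), Fam208b (-1.24), Arid4b (-1.15), Lyst (-1.11), Mef2c (-1.05), Zkscan8 (-0.93), Map1b (-0.91), Klf6 (-0.81), Mrs2 (-0.80), Slc12a7 (-0.73), Ccnb1 (-0.52) and Fam120a (-0.49). It was more positive for Cxcl14 (2.18), Tmem14c (0.90), Ctsl (0.79), Cox7c (0.66), Acot13 (0.65), Ftl1-ps1 (0.56), Hnrnpa0 (0.51), Prelid1 (0.50) and Tbca (0.47). In MC38 the response was more positive in KO for Gzma (1.91) and Hk3 (1.34).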

How the results depend on the processing

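The B16 shift of chromosome 13 kept its sign under every alternative run. Under PBS the median of -0.24 became -0.28 with a pseudocount of 0.1 and -0.12 with no filter on low values, and relative to other chromosomes -0.20 became -0.11 with no filter and -0.23 with a filter of 5 FPKM. Under anti-PD-1 the median of -0.25 became -0.31, -0.05 (no filter), -0.16 (quantile normalization) and -0.44 (protein-coding rescaling, others -0.22), and the relative value of -0.24 became -0.29, -0.07 (no filter), -0.10 (same GC class) and -0.18 (same length class). In MC38 under PBS both were -0.00 with no filter, and the median was 0.01 after rescaling. Leaving out each library gave B16 medians of -0.26 to -0.22 and -0.29 to -0.22, and -0.01 to 0.01 for the relative MC38 anti-PD-1 value. The causes were not tested.

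Calls in MC38 KO numbered 40, 23 with only the contrasted groups fitted, and 19 to 44 with each library left out: 23 without KO PBS replicate 2 or 3, 19 and 22 without KO anti-PD-1 replicate 2 or 3. Calls in B16 KO ranged from 107 to 142 and between lines from 225 to 236. In MC38 KO, Nr2f1, Plk2 and Hmgcs1 lost their calls: limma adjusted p reached 0.110 and 0.146 without KO PBS replicate 3, for Nr2f1 and Plk2, and 0.0565 without KO anti-PD-1 replicate 2 for Hmgcs1. With no filter on low values, limma adjusted p was 0.0726 for Nr2f1 and 0.0962 for Plk2. With only the contrasted groups fitted it was 0.0909 and 0.0695. No paired analysis was possible because the labels carry no replicate numbers, which were given in accession order and pair no libraries. With 3 libraries a group and unknown depth, small differences of single genes were not resolvable.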

Other observations

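The gene Nnt, of the mitochondrial transhydrogenase, is held by 2 overlapping gene models on chromosome 13. In B16 WT PBS libraries Nnt measured 11.7, 1.31 and 1.28 FPKM in ENSMUSG00000025453 and 0, 21.4 and 24.3 in ENSMUSG00000116207. In B16 KO PBS libraries Nnt measured 8.85, 5.95 and 10 in the former and was listed at 0 in the latter in all 3. No single level of Nnt is therefore given.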
